A study of Mus musculus with 2 samples.

Results

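The cells described here were 1401 Vim-high cells of a mouse pancreatic ductal adenocarcinoma that were low in Epcam and low in Tnfaip6. They were taken from 4479 barcodes of a library sorted for high surface CD9, and the 2 libraries of the series held 8582 barcodes in all. A barcode was a member when it had at least 2000 CPM (the UMIs of a gene in each 1000000 UMIs of the barcode) of Vim, under 1500 CPM of Epcam, under 100 CPM of Tnfaip6, under 200 CPM of Bgn and at least 1000 CPM of Malat1. At most 1 UMI of Prrx1, under 2000 CPM of Mrpl13, Derl1 and Ndufb9 together and 0 UMIs of Ptprc were also required. Members were thus selected on measured levels of these 10 genes in the same barcodes, and Csf2, Npy and Hilpda were named as markers from the same contrast, so the values of the selecting genes and of the markers are a description and not a test.

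The tumours came from KPFRR mice, and both libraries share their genotype. A Pdx1-Flp driver was combined with the oncogene KrasFSF-G12D/+, with Trp53frt/frt, whose recombination removes p53, and with a Rosa26FSF-creER allele beside the reporter Rosa26mTmG. Flp recombinase runs from the Pdx1 promoter, which is active in the developing pancreas, so recombination is not limited to ductal cells. After digestion with collagenase and TrypLE, the labels name a sort of live cells by GFP or by CD9. The labels give neither the age nor the number of animals nor a tamoxifen treatment, and they give 1 whole-tumour library and 1 CD9hi library. With 1 library a group there is no replicate, so no difference below was tested, intervals are exact 95% intervals that cover counting error only, and a gene counts as higher or lower when its pooled CPM differed by at least 1.5-fold.

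Vimentin, the product of Vim, is an intermediate filament of mesenchymal cells that carcinoma cells take up in epithelial to mesenchymal transition (EMT), while Epcam encodes an adhesion molecule of epithelial cells. A hybrid state keeps both kinds of genes on. Csf2 encodes GM-CSF, a cytokine through which pancreatic tumour cells act on myeloid cells, Npy encodes neuropeptide Y, and Hilpda encodes a lipid droplet protein induced in low oxygen. Tnfaip6 encodes a secreted hyaluronan-binding protein that inflammatory signals induce, and Bgn and Prrx1 are a matrix proteoglycan and a transcription factor of fibroblasts and mesenchymal cells.

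The CD9hi library held 120451299 UMIs in 5500 barcodes and the whole-tumour library 48287984 UMIs in 3082 barcodes. Barcodes with under 500 genes, under 1000 UMIs or over 20% mitochondrial UMIs were removed, 408 and 532 in number, and 613 and 216 more were under the Malat1 minimum. The reporter GFP had 0 UMIs in both libraries, so the sort cannot be checked on it. Of the barcodes, 2 were shared by both libraries and 0 of them were members. Members had a median of 22417 UMIs and 4664 genes, against 21923.5 UMIs and 4663 genes in the 3078 other barcodes of the library, and mitochondrial genes took 3.17% and 2.94% of the UMIs.

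Members made up 31.3% of the 4479 CD9hi barcodes (exact Clopper-Pearson interval 29.9% to 32.7%). The same thresholds took 258 barcodes of the whole tumour, which was 11.1% of 2334 (9.81% to 12.4%). The thresholds were stated for the CD9hi library. Whether both libraries came from the same animals is not given, so the whole tumour is a second library here and not a known independent replicate. Which gate gave the whole-tumour library is not stated, and the difference in shares can be set by the sort. In the CD9hi library 758 barcodes failed the Tnfaip6 condition alone, 545 the Epcam condition alone, 379 the Prrx1 condition alone and 147 the Vim condition alone. The Prrx1 condition removed no barcode of the whole tumour that met the others.

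The levels just inside and just outside were set side by side for the Vim, Tnfaip6 and Epcam thresholds, where Csf2 was close on both sides and Npy and Hilpda were not always so. The 86 members with 2000 to 2500 CPM of Vim had a pooled Csf2 of 650 CPM, and the 54 barcodes with 1500 to 2000 CPM that failed on Vim alone had 625 CPM. The 157 members with 50 to 100 CPM of Tnfaip6 had a Csf2 of 622 CPM, and the 90 barcodes just outside, at 100 to 150 CPM, had 629 CPM. At the Epcam threshold, 171 members with 1200 to 1500 CPM had a Csf2 of 924 CPM and 119 barcodes just outside had 967 CPM. Hilpda was at 436 CPM inside and 958 CPM outside the Vim threshold, at 428 CPM on both sides of the Tnfaip6 threshold, and at 630.2 CPM inside and 609 CPM outside the Epcam threshold. Npy was at 298 CPM inside and 339 CPM outside for Vim, 369 and 206 CPM for Tnfaip6, and 220.1 and 188 CPM for Epcam.

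The name of the cells was checked on markers. Epcam was below the ceiling but present, with a UMI in 89.2% of members and a pooled level of 615 CPM, and the ductal epithelial keratin genes Krt8 and Krt18 were at 1570.0 and 3399.9 CPM. The 10 ductal epithelial markers, of which 9 reached the 10 CPM minimum, had a summed level of 7223 CPM in members against 8753 CPM in the other barcodes. Krt18, at 3151 CPM in the others, was the largest part of these sums. Sox9 was at 609 CPM in members and 526 CPM in the others. Krt19 was at 152 and 480 CPM, Krt7 at 724 and 1133 CPM and Muc1 at 14.4 and 33.9 CPM. Without barcodes with over 1000 CPM of acinar, islet and macrophage markers, 4 of the 9 measured genes were lower and 0 higher. The members thus carried Vim together with epithelial keratins, with Krt7 and Krt19 lower than in the others. Among defining fibroblast genes, Lum, Dpt, C7 and Fap were at 0 UMIs in all 1401 members. Others were present, with a UMI of Col1a1 in 84 members, of Dcn in 37 and of Col1a2 in 28. The 12 fibroblast markers summed to 25.1 CPM in members against 207 CPM in the others. The limits on Bgn and Prrx1 in the rule bear on this sum, so it is a description and not a test. Of the acinar markers Pnlip, Amy2a5 and Ptf1a were at 0 UMIs, of the islet markers Gcg and Sst, of the endothelial markers Emcn and of the mast cell markers Cpa3, Tpsb2, Ms4a2 and Fcer1a. In the others Emcn was at 1.66 CPM, and these acinar, islet and mast cell genes were at 0.106 CPM or less. Their absence thus does not set members apart. Other genes of these lists were present. A UMI of the acinar genes Cela1 and Try5 was found in 161 and 76 members, and of the endothelial genes Pecam1 and Cldn5 in 64 and 65. Flt1, a VEGF receptor gene of the endothelial list, was at 76.3 CPM with a UMI in 868 members and at 67.1 CPM in the others, where the whole list of 9 summed to 85.2 and 85.8 CPM. Mcpt8, of the mast cell and basophil list, was at 258 CPM with a UMI in 880 members and at 186 CPM in the others, and made up most of that list's 261 and 188 CPM. Iapp, an islet hormone, had 1370 UMIs in 14 members, but 99.1% of these UMIs were in 1 member. Over 1000 CPM of acinar, islet and macrophage markers together was found in 5 members (0.357%) and in 49 of the others (1.59%).

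Csf2 was at 667 CPM in members, 810 CPM in the Tnfaip6-high cells that met every other condition, 967 CPM in the 638 cells with both Epcam and Vim past their thresholds and 0 UMIs of Ptprc, on which the other conditions were not imposed, and 218 CPM in the 185 Bgn-high cells. Of these groups the highest level of Csf2 was in the cells that kept Epcam, not in the members. Within members the median barcode had 208 CPM and the 10th to 90th percentile ran from 0 to 1895 CPM. Over all other CD9hi barcodes, at 513 CPM, the log2 ratio was 0.38, under 1.5-fold. In the whole tumour Csf2 was at 691 CPM in cells of the same rule and 301 CPM in the 2076 other barcodes, a log2 ratio of 1.20 (1.14 to 1.25). The members and their whole-tumour counterparts differed by less in Csf2 than either did from the rest of its library.

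Npy was at 281 CPM in members, 317 CPM in Tnfaip6-high cells, 162 CPM in Epcam- and Vim-high cells and 45.6 CPM in Bgn-high cells. It followed another order than Csf2, with members and Tnfaip6-high cells above the Epcam- and Vim-high cells. Over all other CD9hi barcodes, at 189 CPM, the log2 ratio was 0.58, also under 1.5-fold. In the whole tumour it was at 576 CPM in cells of the same rule and 96.9 CPM in the others, a log2 ratio of 2.57 (2.50 to 2.64). The median barcode of the whole-tumour cells had 44.7 CPM and their 90th percentile 1539 CPM, so the pooled level stood well above that of the median barcode.

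Hilpda was at 514 CPM in members, 389 CPM in Tnfaip6-high cells, 543 CPM in Epcam- and Vim-high cells and 160 CPM in Bgn-high cells. The 21 immune barcodes of the library stood above all of these at 867 CPM, so Hilpda does not mark the members alone. Over all other CD9hi barcodes, at 340.0 CPM, the log2 ratio was 0.60. In the whole tumour it was at 626 CPM in cells of the same rule against 276 CPM in the others, a log2 ratio of 1.18 (1.12 to 1.24). Cd9, the sorted surface protein's gene, was at 2319 CPM in members and 2306 CPM in the other CD9hi barcodes, but in the whole tumour at 3219 CPM in cells of the same rule and 1106 CPM in the others.

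To compare the share of cells with a UMI at equal depth, each barcode was thinned to 5000 UMIs, which left out 22 members. Csf2 was then found in 55.5% of members (52.9% to 58.2%), 47.6% of the other CD9hi barcodes and 5.26% of 19 immune barcodes, against 68.8% of members before thinning. Npy was found in 38.4% of members (35.8% to 41.0%), 25.7% of the others and 10.5% of the immune barcodes, and Hilpda in 64.8% (62.2% to 67.4%), 52.7% and 68.4%. In the whole tumour, acinar barcodes gave a background of 7.46% for Csf2 and 0.877% for Npy, and cells of the same rule had 52.8% and 38.9%. The shares of Csf2 and Npy were above those backgrounds in members of both libraries. For Hilpda the share in members was below that of the immune barcodes and above the 27.2% of acinar barcodes.

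**Figure D1:**
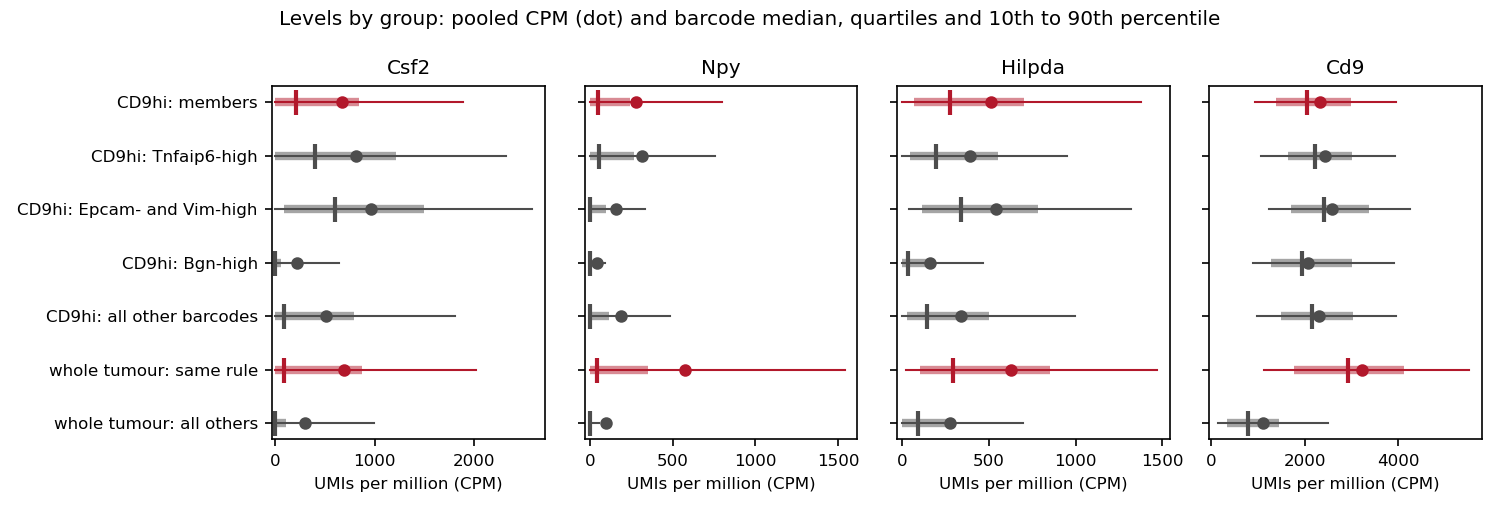
Levels of Csf2, Npy, Hilpda and Cd9 by group, on a linear CPM axis: dots are pooled CPM, ticks the median barcode, thick bars the quartiles and thin bars the 10th to 90th percentile over barcodes. Members and their whole-tumour counterparts are in red. Csf2 is highest in the Epcam- and Vim-high cells at 967 CPM, and Npy in the whole-tumour cells of the same rule at 576 CPM.

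Against all other CD9hi barcodes, 41 of 7663 genes with a mean of at least 10 CPM were higher in members (0.535%) and 279 lower (3.64%). The thresholds were made on this contrast, so nothing is read from these counts. The median log2 ratio was −0.05 and 94.3% of genes lay within 0.5 on the log2 scale. The other barcodes pool Epcam-high with other Vim-high cells, so this closeness holds for the pool and not for each of its parts. Against only the other Vim-high, Epcam-low barcodes, 308 of 7638 genes were higher in members (4.03%) and 503 lower (6.59%).

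Some of the 20 genes with the highest ratios encode secreted proteins or ligands. The cytokine and chemokine list as a whole was mixed. Without barcodes with over 1000 CPM of acinar, islet and macrophage markers, 1 of its 17 measured genes was higher and 1 lower (median 0.21). In the whole tumour, also without them, 2 of 20 were higher and 8 lower (−0.38). Against only the other Vim-high, Epcam-low barcodes 8 of 18 were higher and 5 lower (0.42). Dlk1, a Delta-like ligand of endocrine progenitor and fetal cells, led at 51.5 CPM in members and 28.8 CPM in the others, a log2 ratio of 0.84 (0.75 to 0.93). Only 26.7% of members had a UMI of Dlk1, and 5% of members held 62.3% of its UMIs. Lif, an IL-6 family cytokine, was at 70.7 and 41.8 CPM (0.76, 0.68 to 0.84). Angptl4, a secreted inhibitor of lipoprotein lipase, was at 144 and 91.7 CPM (0.65). The hormone Stc1 (40.5 and 25.2 CPM) and the Notch ligand Dll4 (24.9 and 15.5 CPM) were each higher by 0.68. Dll4 had a UMI in 21.1% of members, with 56.9% of its UMIs in 5% of members. Tinagl1, a matricellular protein, was at 411 and 264 CPM (0.64).

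The list held genes of other kinds too. Id1, an inhibitor of basic helix-loop-helix factors and a target of BMP signals, was at 313 CPM in members and 189 CPM in the others (0.73). Cebpd, an acute-phase transcription factor, was at 277 and 169 CPM (0.72). Foxa2, a pioneer factor of endoderm, was at 51.7 and 31.9 CPM (0.70). The thrombin receptor gene F2r was at 468 and 283 CPM (0.72), the cadherin gene Cdh6 at 115 and 69.9 CPM (0.72) and Socs2, a feedback inhibitor of cytokine receptors, at 154 and 97.3 CPM (0.66). The G protein regulator Rgs2 was at 641 and 414 CPM (0.63) and the nucleoside transporter gene Slc29a1 at 147 and 96.0 CPM (0.61). Plac8, at 211 and 124 CPM (0.76), and the keratin gene Krt23, at 58.6 and 36.2 CPM (0.69), were the others above 0.69.

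The highest ratio was thus 0.84 on the log2 scale, and all 20 kept their direction under every alternative setting. Fewer were past 1.5-fold under some of them: 9 with each barcode weighted equally and 10 with Vim of at least 4000 CPM. The whole tumour was the library in which the same genes could be looked up anew. Of the 19 that reached 10 CPM there, 11 were higher in cells of the same rule and 2 lower, beside a background of 9.64% higher and 12.9% lower of 7715 genes.

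Dlk1 stood furthest apart in the whole tumour as well, at 160 CPM in cells of the same rule and 7.52 CPM in the others, a log2 ratio of 4.41 (4.22 to 4.62). Slc29a1 was at 193 and 54.9 CPM (1.82), Rgs2 at 827 and 256 CPM (1.70) and F2r at 336 and 109 CPM (1.62). Plac8 and Stc1 went the other way, with Plac8 at 87.7 CPM in cells of the same rule and 220 CPM in the others (−1.33) and Stc1 at 16.2 and 44.3 CPM (−1.44). The contents of the comparison set differed between the libraries. Over 1000 CPM of acinar, islet and macrophage markers was found in 24.8% of the other whole-tumour barcodes and 1.59% of the other CD9hi barcodes. Without such barcodes 526 of 7713 genes were higher in the whole-tumour cells of the same rule (6.82%) and 998 lower (12.9%). The part of these barcodes in the ratios of the genes named here was not tested.

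**Figure D2:**
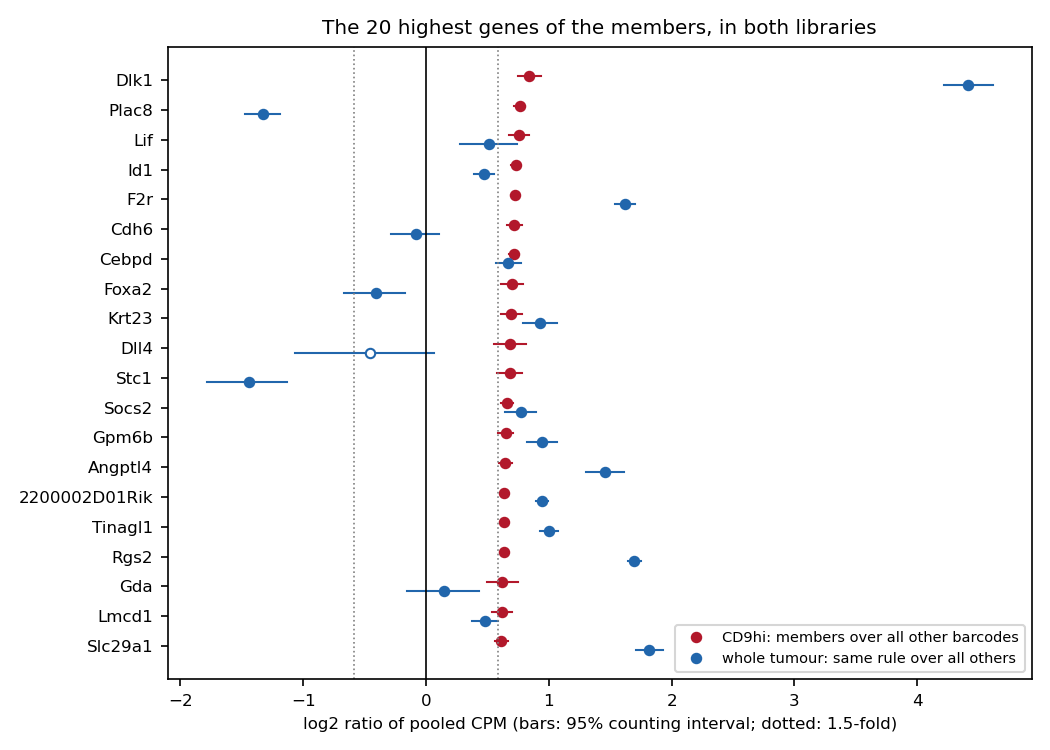
The 20 genes with the highest ratio of members over all other CD9hi barcodes (red), with the same genes in the whole tumour (blue). Points are log2 ratios of pooled CPM, bars 95% counting intervals, open points genes under the 10 CPM minimum, and dotted lines 1.5-fold. Dlk1 lies furthest right in the whole tumour at 4.41, and Plac8 and Stc1 lie left of 0 there.

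The 20 genes with the lowest ratios included 3 genes of the rule itself, Bgn, Prrx1 and Tnfaip6, and Cd74 and Lyz2, genes of myeloid and antigen-presenting cells. Pyy, the gut hormone peptide YY, was at 0.653 CPM in members and 109 CPM in the others (−7.34), and the mucosal peptide Tff2 was lower by −6.05. Without the barcodes with other cell type markers Pyy was at 0.655 and 0.967 CPM (−0.54), with 18 of the 20 lowest still below 0 and 13 past 1.5-fold. Against only the other Vim-high, Epcam-low barcodes Pyy (0.54) and Tff2 (0.64) were above 0, and 12 of the 20 kept their sign. Their counts in the others came from few barcodes, with 34.3% of the UMIs of Pyy and 37.3% of those of Tff2 in a single barcode and 99.5% of those of the insulin gene Ins1. Others were spread over more barcodes. Col5a2, a fibrillar collagen gene, was at 5.69 and 41.7 CPM (−2.87), Serpinf1, which encodes the secreted factor PEDF, at 2.33 and 38.1 CPM (−4.02), and the actin-binding protein gene Tagln at 6.47 and 66.0 CPM (−3.35). For these 3 the largest single barcode held 2.55%, 1.81% and 3.55% of the others' UMIs.

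The Tnfaip6-high cells met every condition but 1. Barcodes that failed only another condition, 545 of them Epcam and 379 Prrx1, did so too. Those were not compared gene by gene as groups of their own. All comparisons below share the members, so their values stand side by side and are not independent. Of 7512 genes 67 were higher in members (0.892%) and 195 lower (2.6%), and 94.9% lay within 0.5 on the log2 scale. The genes higher in members included several usually read in other cell types. Mcpt8, a basophil protease gene, was at 258 CPM in members and 95.9 CPM in Tnfaip6-high cells, a log2 ratio of 1.43 (1.35 to 1.51). It had a UMI in 880 members, and of the other 6 genes of its list Cpa3, Tpsb2, Ms4a2 and Fcer1a were at 0 in members, Kit had 55 UMIs in 44 members and Mcpt4 21 UMIs in 8 members. Gzme, a granzyme gene, was at 77.3 and 36.7 CPM (1.07). Both belong to multigene families, whose counts are uncertain.

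Wfdc2, an epithelial protease inhibitor gene, was at 177 CPM in members and 56.3 CPM in Tnfaip6-high cells (1.65), but at 315 CPM in the other CD9hi barcodes together and 448 CPM in Epcam- and Vim-high cells. Members therefore lay between the Tnfaip6-high and the Epcam- and Vim-high cells in Wfdc2. Krt7 showed the same order, at 724 CPM in members, 412 CPM in Tnfaip6-high cells and 2268 CPM in Epcam- and Vim-high cells. Dlk1 (1.26), Krt23 (1.23), Stc1 (1.11) and the glutathione transferase gene Gsta4 (1.19) were also higher in members than in Tnfaip6-high cells.

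Matrix genes were lower in members than in Tnfaip6-high cells. Col6a2, a collagen VI chain, was at 21.2 and 83.0 CPM (−1.97, −2.10 to −1.83), and Fstl1, a secreted glycoprotein, at 23.8 and 87.9 CPM (−1.88). Of the 15 measured genes of the collagen and matrix glycoprotein list 10 were lower and 0 higher, with a list median of −1.08 beside −0.01 for all genes. The matrix glycoprotein tenascin C, from Tnc, was at 326 CPM in members and 924 CPM in Tnfaip6-high cells (−1.50). Tppp3, a tubulin-binding protein gene, was at 19.3 and 94.7 CPM (−2.29), and the activin subunit gene Inhba at 239 and 472 CPM (−0.98). The interferon list, with 6 of 9 measured genes lower and 0 higher, had a median of −0.85, and Ifitm3, an antiviral membrane protein gene, was at 224 and 378 CPM (−0.76). Ifitm1, a gene of the same family that is not on the list, was higher, at 65.5 and 15.5 CPM (2.07, 1.89 to 2.27). Only 6.35% of members had a UMI of Ifitm1, and 5% of members held 99.1% of its UMIs. Against only the other Vim-high, Epcam-low barcodes Ifitm1 was below 0, at 65.5 and 89.3 CPM (−0.45).

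Against the Epcam- and Vim-high cells, of which some also failed another condition of the rule, 149 of 7508 genes were higher in members (1.98%) and 209 lower (2.78%). Epcam was the criterion here, and 16 of the 19 measured epithelial identity genes were lower in members with 0 higher, a median of −1.19 beside −0.03 for all genes. Krt19 was at 152 and 687 CPM (−2.18), the claudin gene Cldn7 at 42.1 and 187 CPM (−2.15) and the laminin chain gene Lama3 at 18.6 and 146 CPM (−2.97). Of the mesenchymal list 4 of 18 were higher and 0 lower. Sparc, a matricellular protein gene, was at 90.6 and 41.8 CPM (1.12), and the metalloproteinase inhibitor gene Timp1 at 1264 and 737 CPM (0.78). Ccl2, a monocyte chemokine gene, was at 97.3 and 27.1 CPM (1.84), though 5% of members held 88.5% of its UMIs. Most measured matrix genes were thus lower than in Tnfaip6-high cells, while 2 of 12 were higher and 0 lower than in Epcam- and Vim-high cells.

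Against all other CD9hi barcodes, where the rule bears on the result, matrix, epithelial and mesenchymal lists all had medians below 0. Of 20 measured collagen and matrix glycoprotein genes 12 were lower and 0 higher (median −1.26), of 20 epithelial identity genes 10 were lower and 0 higher (−0.60), and of 23 mesenchymal genes 9 were lower and 0 higher (−0.17). Of 14 proliferation genes 8 were lower, among them Top2a, at 6.44 and 14.5 CPM, and 0 were higher. Of the metabolic and stress lists, 0 of 15 cholesterol synthesis genes, 0 of 24 respiratory chain genes, 0 of 21 immediate early genes and 0 of 14 p53 targets were past 1.5-fold in either direction, and 1 of 16 hypoxia genes was higher, which was Hilpda itself, and 1 lower, which was Plod2. Of 14 genes of serine, glutamine and amino acid supply 1 was higher and 3 lower (median −0.22), among them the serine synthesis gene Psat1, at 24.8 and 46.6 CPM (−0.91), and the folate enzyme gene Mthfd2, at 30.3 and 49.9 CPM (−0.72). Of 9 Notch genes 1, Dll4, was higher, while Jag1, the ligand named in the title of the study, was at 150 and 155 CPM (−0.05, −0.09 to 0.00). Of 17 tetraspanin genes, the family of Cd9, 0 were past 1.5-fold.

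Applied to the whole tumour, the rule set mesenchymal and epithelial genes further apart. Vim was at 4631 CPM in cells of the same rule and 761 CPM in the other barcodes. Of 23 epithelial identity genes 22 were lower and 0 higher (median −2.24), and of 19 mesenchymal genes 14 were higher and 2 lower (0.87), beside a median of 0.03 for all genes. The EMT transcription factor gene Twist1 was at 75.3 CPM in cells of the same rule and 15.8 CPM in the others (2.26), and Zeb1 at 33.1 and 13.8 CPM (1.27). Axl, a receptor tyrosine kinase gene, was at 86.1 and 14.9 CPM (2.53), and Uchl1, a deubiquitinase gene of neurons and endocrine cells, at 489 and 93.1 CPM (2.39). Of 15 glycolysis genes 8 were higher and 0 lower (0.61). Without the barcodes with other cell type markers, 5 of 15 glycolysis genes (0.50) and 10 of 19 mesenchymal genes (0.72) were higher. Of 17 genes of the classical tumour subtype 16 were lower and 0 higher (−1.97). Vim and Epcam were part of the rule, and the mesenchymal list holds Vim and the epithelial list Epcam. Axl and Uchl1 were chosen after their values were seen.

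**Figure D3:**
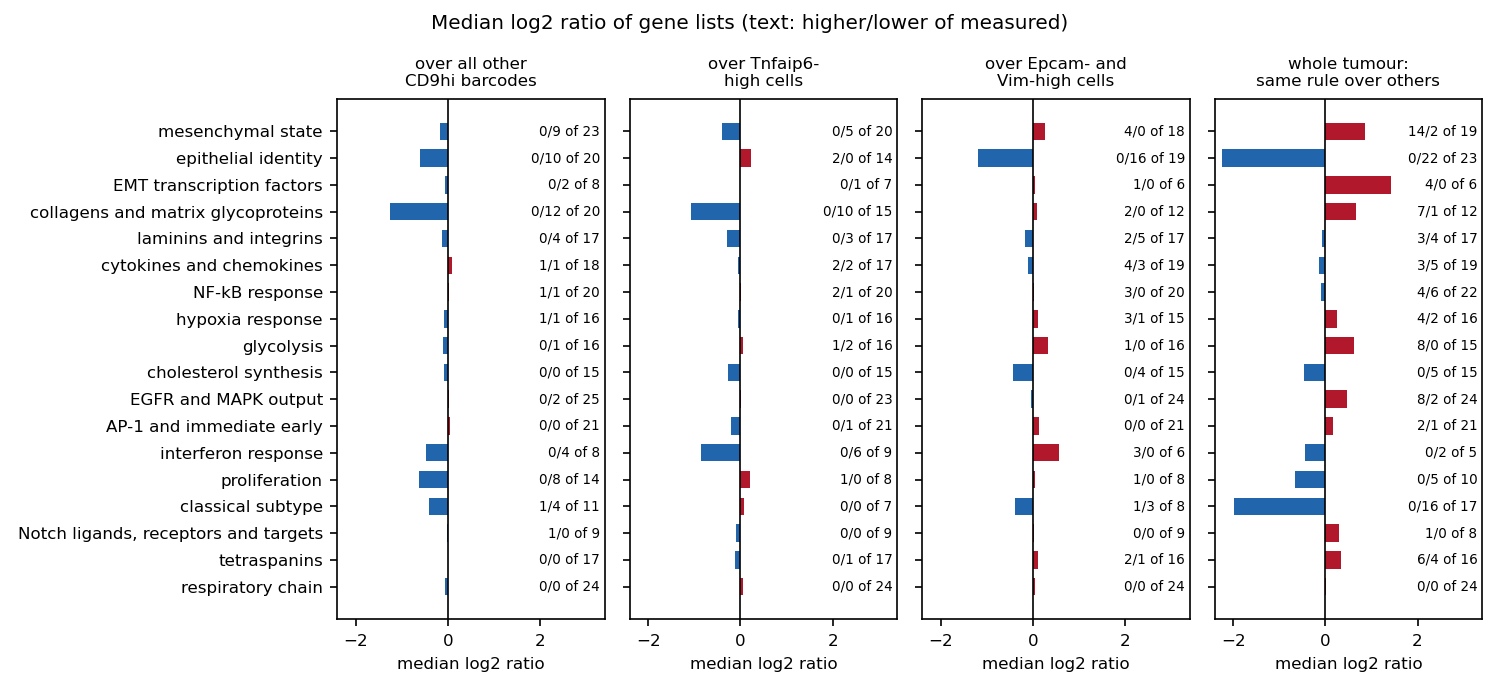
Median log2 ratios of 18 gene lists in members over all other CD9hi barcodes, over Tnfaip6-high cells and over Epcam- and Vim-high cells, and in whole-tumour cells of the same rule over the others. Bars are medians over measured genes, and the text in each row counts genes at least 1.5-fold higher and lower of those measured. Epithelial identity has a median of −1.19 against Epcam- and Vim-high cells and 0.23 against Tnfaip6-high cells, and collagens have −1.08 against the latter.

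Members were not uniform in Csf2. Of the 1401 members 437 (31.2%) had 0 UMIs of it, the median was 4 UMIs, the 90th percentile 46 UMIs and the highest 235 UMIs. Depth moved with this split, at a median of 20859 UMIs without and 23274.5 UMIs with Csf2, and its part in the result was not tested. Genes in the split were named after their values were seen. Between members without and with a UMI, 95 of 7481 genes were higher in the former (1.27%) and 96 lower (1.28%).

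Cytokine genes were lower in members without Csf2. Of 16 measured cytokine and chemokine genes 9 were lower and 1 higher (median −0.70 beside −0.04 for all genes, with Csf2 itself on the list), and of 20 NF-kB response genes 8 were lower and 0 higher (−0.44). Il1a, an alarmin cytokine gene, was at 20.04 CPM without and 68.1 CPM with Csf2 (−1.76, −1.99 to −1.54). Tnf was at 12.2 and 39.2 CPM (−1.67), Ccl2 at 38.9 and 120 CPM (−1.62) and Lif at 35.5 and 84.4 CPM (−1.25, −1.42 to −1.08). Hilpda was lower in the same members, at 332 and 585 CPM (−0.82), whereas Npy was at 279 and 282 CPM (−0.02) and Vim differed by −0.02. Over the 1401 members the Spearman correlation with Csf2 was 0.01 for Npy and 0.32 for Hilpda. These are descriptions over barcodes of 1 library, in which both genes of a pair share the depth of the barcode.

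Other genes named after their values were seen lay on both sides of the split. Inhba was at 131 CPM without and 281 CPM with Csf2 (−1.11), Tnc at 204 and 373 CPM (−0.87) and Pdgfb, a growth factor gene, at 142 and 251 CPM (−0.82). Sparc was higher without Csf2, at 158 and 64.5 CPM (1.29, 1.18 to 1.40), as was Pcolce, an enhancer of collagen processing, at 99.0 and 39.2 CPM (1.34). Tgfbi, a TGF-beta induced matrix protein gene, was at 33.4 and 6.82 CPM (2.29), and Dlk1 at 78.5 and 41.0 CPM (0.94). Dlk1 and Lif, both among the genes highest over the other barcodes, thus stood on opposite sides of this split.

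The whole-tumour cells of the same rule were split in the same way, in a library that the split was not made on, with 103 cells without and 155 cells with a Csf2 UMI. There 201 of 7300 genes were higher without Csf2 (2.75%) and 286 lower (3.92%). Of the 19 genes lowest in CD9hi members without Csf2, leaving out Csf2, 17 were measured and 9 were lower and 0 higher in the whole tumour. Of the 20 highest, 16 were measured and 8 were higher and 1 lower. Hilpda was at 460 and 730 CPM (−0.67, −0.78 to −0.56), Lif at 27.4 and 41.7 CPM (−0.60) and Pdgfb at 94.0 and 194 CPM (−1.04). Sparc was at 118 and 75.4 CPM (0.64) and Pcolce at 56.4 and 36.3 CPM (0.64). Npy differed in this library, at 371 CPM without and 704 CPM with Csf2 (−0.93), unlike its near equal level in CD9hi members, and Il1a was at 24.4 and 27.4 CPM with 58.3% of the former in 1 barcode. The acinar markers were higher in the cells without Csf2, with 8 of 8 measured genes, and their part in the result was not tested.

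**Figure D4:**
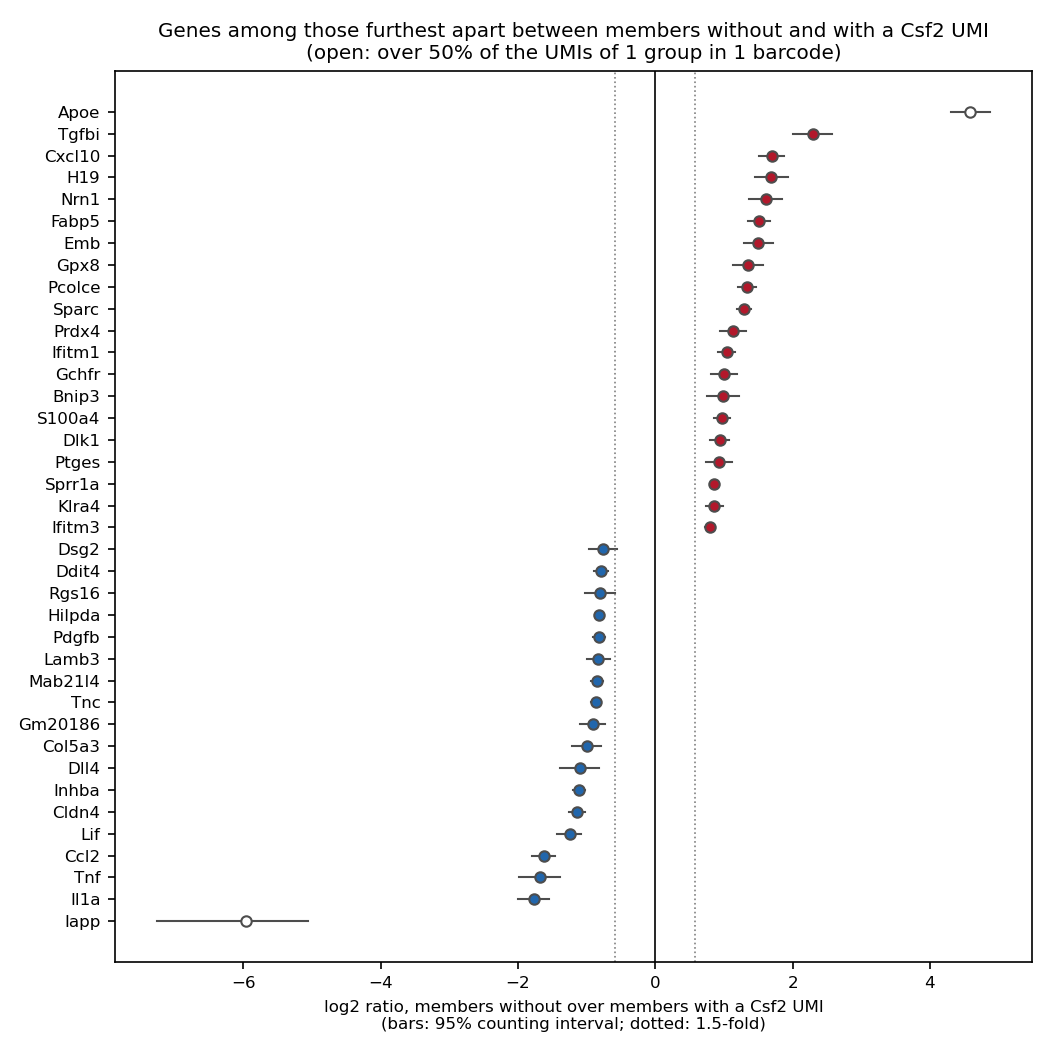
Genes among those furthest apart between the 437 members without and the 964 members with a Csf2 UMI. Points are log2 ratios of pooled CPM, bars 95% counting intervals, dotted lines 1.5-fold, and open points genes with over 50% of the UMIs of 1 group in 1 barcode. Tgfbi at 2.29 lies far right, and Il1a at −1.76, Tnf at −1.67 and Ccl2 at −1.62 lie left.

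The promoters of Csf2, Lif and Hilpda are shown because Lif and Hilpda were lower in members without a Csf2 UMI in both libraries. Csf2 itself is at 0 there by the split. They run from 250 bases before to 50 bases after a RefSeq start on GRCm38.p6, at chr11:54249850-54250149 on the minus strand for Csf2, chr11:4257318-4257617 on the plus strand for Lif and chr6:29272376-29272675 on the plus strand for the second of 2 starts of Hilpda. Capitals mark matches on either strand to the AP-1 motif TGANTCA or the hypoxia response core ACGTG.
Csf2: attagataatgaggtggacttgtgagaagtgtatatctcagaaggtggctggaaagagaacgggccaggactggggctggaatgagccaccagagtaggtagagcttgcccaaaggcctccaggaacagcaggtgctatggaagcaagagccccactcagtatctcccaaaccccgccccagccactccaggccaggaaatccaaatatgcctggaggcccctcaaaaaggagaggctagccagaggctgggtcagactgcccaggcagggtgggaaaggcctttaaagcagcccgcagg
Lif: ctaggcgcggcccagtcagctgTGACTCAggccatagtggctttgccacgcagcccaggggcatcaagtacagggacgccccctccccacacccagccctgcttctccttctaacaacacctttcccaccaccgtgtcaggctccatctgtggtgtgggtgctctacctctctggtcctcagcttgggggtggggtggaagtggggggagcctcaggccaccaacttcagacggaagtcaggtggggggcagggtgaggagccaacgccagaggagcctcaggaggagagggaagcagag
Hilpda: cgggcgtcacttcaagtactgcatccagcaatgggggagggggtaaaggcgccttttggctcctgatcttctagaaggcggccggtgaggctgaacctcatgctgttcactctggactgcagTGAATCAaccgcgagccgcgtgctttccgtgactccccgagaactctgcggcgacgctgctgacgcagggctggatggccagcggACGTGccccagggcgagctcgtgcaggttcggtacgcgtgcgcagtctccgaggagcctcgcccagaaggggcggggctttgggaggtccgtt
Lif holds TGACTCA from base −228 and Hilpda TGAATCA from base −128 and ACGTG from base −43, counted from the start. The window of the first Hilpda start, not shown, holds TGAATCA from base 11 and no ACGTG. AP-1 is the factor of Fos and Jun proteins. The motifs NF-kB (GGGA, any 2 bases, then TTCC), STAT (TTCNNNGAA) and TATA box (TATAAA) were searched on both strands too and gave no match in the 3 windows shown. The Csf2 window matched none of the 5 motifs. Of 32851 promoters of this length 7.81% hold the AP-1 motif, 19.6% the hypoxia core, 1.47% the NF-kB motif, 8.30% the STAT motif and 13.6% the TATA box, so a match is a description of letters and not a site.

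Variation among members was also measured gene by gene. Over 5494 genes the median excess variance, the squared coefficient of variation left after counting noise, was 0.167. The genes at the top were held by few cells. Iapp and Ppy, both islet hormone genes, reached 1226 and 1198, with 99.1% and 98.0% of their UMIs in 1 member each. The lipid carrier gene Apoe had 83.3% of its UMIs in 1 member. Next came Fabp5, a lipid-binding protein gene, at 60.6, found in 26.7% of members with 66.0% of its UMIs in 5% of them. Cxcl10, an interferon-induced chemokine gene, was found in 6.28% of members and 5% of members held 98.3% of its UMIs. Isg15, a ubiquitin-like interferon product, was found in 9.21% (93.0% of its UMIs in the top 5%) and Ifitm1 in 6.35% (99.1%). Rgs5, a pericyte marker, had 96.3% of its UMIs in 5% of members, while of the other 7 genes of the pericyte list Myh11 was at 0, Acta2 had 254 UMIs in 55 members, Mcam 135 UMIs in 121 members and Cspg4 32 UMIs in 27 members. Cxcl2, a neutrophil chemokine gene, was found in 20.8% of members (75.2%).

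Members and their whole-tumour counterparts met the same thresholds in different libraries, so a difference between them cannot be told apart from the sort or the library. Of 7418 genes 596 were higher in CD9hi members (8.03%) and 281 lower (3.79%). The cornified envelope gene Sprr1a was at 311 CPM in CD9hi members and 57.9 CPM in the whole tumour (2.42), and Ankrd1, a YAP target, at 231 and 68.5 CPM (1.75). Dlk1 was at 51.5 and 160 CPM (−1.64) and Npy at 281 and 576 CPM (−1.03). The ribosomal RNA gene Rn18s was at 2044 and 19467 CPM (−3.25), and acinar genes such as Ctrb1 were at 12.97 and 156 CPM. Genes in this comparison were chosen after their values were seen.

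Ratios of genes by chromosome were flat in the CD9hi library, with medians of −0.09 to 0.02 over the autosomes and X. In the whole tumour chromosome 6 had a median of 0.23 over 406 genes and chromosome 11 of 0.16 over 616 genes, against −0.03 to 0.07 for the others. Npy and Hilpda lie on chromosome 6, and Csf2 and Lif on chromosome 11. In CD9hi members over whole-tumour cells of the same rule, chromosome 6 had a median of −0.23 over 378 genes. The other chromosomes were at 0.02 to 0.14 in that comparison. The part of this in the ratios of the markers was not tested. Chromosome names came from RefSeq for 99.3% of 7656 genes with a symbol of their own.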

How the data were processed

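Per the labels, 1 whole-tumour and 1 CD9hi-sorted library of transcript 3′ ends were made with Chromium Next GEM Single Cell v3.1 chemistry. The authors deposited UMI counts of each gene in each barcode, not normalized. They were made with Cell Ranger 7.0.0 on GRCm39, per the submitters' processing notes, but the matrices name 6.1.2, per the file headers. Whether introns were counted is not given in the sources used here. Of 55361 features 1705 shared a symbol and were kept apart by identifier.

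The members, the thresholds and the gene lists were chosen with earlier results of these data known. UMIs were summed over the barcodes of a group and divided by their total (CPM). Ratios are log2 with 0.5 counts added to each sum, over genes with a mean of at least 10 CPM outside mitochondrially encoded genes, and intervals are exact conditional binomial, Poisson or Clopper-Pearson. Genes were named by rule: the 20 highest and 20 lowest ratios over the other CD9hi barcodes and the 10 highest and 10 lowest over Tnfaip6-high cells, at a mean of at least 20 CPM, the genes of the thresholds, Csf2, Npy and Hilpda, up to 4 genes of each list by ratio, and the 15 most variable among members. Others named were chosen after their values were seen. Doublets were kept; Scrublet's automatic threshold marked 0.0196% of CD9hi barcodes, so it had not worked, and the 207 highest scores, 56 of them members, were removed only as an alternative. Counts of multigene families (Mcpt, Gzm, Klra, Ifitm, Reg, trypsinogens) are uncertain. Python 3.11.15, scipy 1.17.1 and scanpy 1.11.5 were used, and the code was tested on simulated data. Promoters came from RefSeq, GRCm38.p6. The alternatives were other doublet, comparison set, scaling, minimum, threshold and thinning choices. Some genes are not reported here.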

Additional observations from a re-analysis of the deposited data

Results flagged for a closer look

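Among 201 genes named by rule, 156 were measured in both libraries, and 13 were at least 1.5-fold apart in opposite directions: members over the other CD9hi barcodes, and whole-tumour cells of the same rule over the other whole-tumour barcodes. Each library is 1 sample and the difference between them was not tested.

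Genes higher in CD9hi members and lower in the whole tumour were Plac8 (0.76 and −1.33), Stc1 (0.68 and −1.44) and Icam1, an adhesion molecule gene (0.60 and −1.30). Genes lower in CD9hi members and higher in the whole tumour were of several kinds. S100a4, a calcium-binding protein gene of mesenchymal cells, was at −1.45 and 1.51, Col6a2 at −1.60 and 0.70, the imprinted RNA gene H19 at −2.06 and 1.23 and Tppp3 at −1.13 and 0.91. Of the metabolic genes, the lactate transporter gene Slc16a3 was at −0.73 and 0.79, the serine synthesis gene Psat1 at −0.91 and 0.82 and the folate enzyme gene Mthfd2 at −0.72 and 0.98. The Wnt antagonist gene Dkk2 was at −0.59 and 0.81 and Klra4, a receptor gene of natural killer cells, at −0.84 and 3.82. The protease gene Mmp3 was at −2.46 and 4.94, with 98.4% of its UMIs in 1 whole-tumour cell of the rule.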

How the results depend on the processing

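No paired analysis was possible because each group has 1 library. Against only the other Vim-high, Epcam-low barcodes, 308 genes were higher in members and 503 lower. With each barcode weighted equally 17 were higher, with no expression minimum 3141 higher and 6793 lower, at a mean of at least 50 CPM 17 and 54, with Vim of at least 4000 CPM 22 higher and with Tnfaip6 at 0 UMIs 25 higher. At a mean of at least 50 CPM, 9 genes were higher and 68 lower than in Tnfaip6-high cells, and 313 higher and 197 lower in the whole tumour. Members were 27.5% of all 5092 kept CD9hi barcodes, 18.5% with Vim of at least 4000 CPM, 21.3% with Tnfaip6 at 0 UMIs and 25.8% with no filter on barcodes. Thinned to 10000 UMIs, Csf2 was found in 62.6%, Npy in 46.5% and Hilpda in 77.1% of members.

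Directions reversed against the other Vim-high, Epcam-low barcodes for the medians of epithelial identity (1.24), peptide hormones (0.74) and islet markers (6.34), and for Ppy (5.25), Iapp (7.43), Wfdc2 (1.61), Epcam (1.40), Cldn7 (1.77), Krt19 (0.27), Lama3 (1.01), Lamb3 (0.57), Serpinb5 (0.74), Muc1 (1.09), S100a14 (1.35), Krt7 (1.76) and Apoe (2.22). That comparison set leaves out the Epcam-high barcodes by construction. The islet median rests on 2 measured genes. Of the members' UMIs, 1 barcode held 99.1% for Iapp, 98.0% for Ppy and 83.3% for Apoe, each taken by itself. Without barcodes with other cell type markers, Iapp and Ppy were each at 0.406 CPM in members. The basal and squamous median was 0.13 at a mean of at least 50 CPM, and the peptide hormone median 0.28 without barcodes with other cell type markers, an alternative added after seeing the data, as were the Csf2 split and the comparison of members between libraries. At a mean of at least 50 CPM the medians by chromosome were −0.0153 (chromosome 1), −0.0307 (2), −0.0461 (3), −0.0115 (4), −0.0472 (5), −0.0469 (6), 0.0303 (8), −0.0283 (9), 0.00375 (10), −0.0234 (11), −0.0297 (14), 0.00696 (16), −0.0192 (17), −0.0324 (18), −0.0455 (19) and 0.00753 (X). The causes were not tested. Other list medians stayed within the range of their genes in 458 cases and left it in 23, and log2 ratios of named genes stayed within their counting interval in 1594 cases and left it in 620. Genes of few UMIs rest on depth, and 1 library a group sets no error between animals.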
